A study of Mus musculus with 4 samples.

Results

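The genes described here are the mouse C-type lectin receptors with a Clec symbol and the killer-cell lectin-like receptors with a Klr symbol, as they were counted in whole testis. They were chosen by symbol alone, as every row whose name starts with Clec and a digit or with Klr, a letter from a to k and a digit, without antisense symbols ending in os and without pseudogene symbols holding -ps. This gave 59 of 49492 gene rows, 33 with a Clec symbol and 26 with a Klr symbol, after 4 pseudogene symbols had been dropped. GENCODE mouse release M21 annotates 3 of the 59 as a kind of pseudogene, namely Clec2f, Clec2j and Clec7a, the last as polymorphic.

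C-type lectin receptors carry a folded domain that binds sugars, lipids or proteins. On macrophages, dendritic cells and neutrophils, many of the activating members signal through adaptors with an ITAM (a tyrosine motif, as in the Fc receptor gamma chain and DAP12). The signal passes to the kinase Syk and the adaptor Card9, while inhibitory members recruit phosphatases such as SHP-1 through an ITIM. The Klr genes encode the lectin-like receptors of natural killer (NK) cells and some T cells, which read MHC class I molecules, stress ligands or the related Clec2 proteins. Most of both groups lie together on mouse chromosome 6, in the NK gene complex and a neighbouring Clec4 cluster. In the testis the resident macrophages beside the Leydig cells are the most abundant leukocytes.

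RNA was sequenced from whole testes of male C57BL/6J mice in 4 libraries. By the labels all mice had received LPS (lipopolysaccharide, a bacterial product that activates innate immunity), 2 libraries came from a short-hairpin knockdown of Spry1 (genotype Spry1 knockdown) and 2 from a control hairpin (genotype WT). The age of the mice, the LPS dose and time, the way the hairpin was delivered and the cells it reached are not stated in these sources. Whether the 2 libraries of a group are separate animals is not stated. The p-values therefore rest on a spread between libraries that may be technical. The headings of the count columns, LPS and NC, are not the sample titles. NC was taken as the control hairpin and LPS as the Spry1 knockdown, a reading of the names made after the counts had been seen. If the headings stand for LPS against no LPS, every difference below belongs to that contrast, and the 2 possibilities cannot be told apart here. The groups are therefore named by their column headings, and log2 fold changes above 0 stand for more RNA in the LPS columns.

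Spry1, the targeted gene, had 45 and 41 counts in the NC libraries and fewer, 26 and 17, in the LPS libraries, a log2 fold change of -0.82 with a standard error (SE) of 0.28 (edgeR, Benjamini-Hochberg adjusted p = 0.0212). DESeq2 did not call it (adjusted p = 0.249), nor did edgeR without LPS replicate 2 (0.183), NC replicate 1 (0.0952) or NC replicate 2 (0.0653). Libraries held 17612342 to 22451132 counts, and levels are in CPM (counts per 1000000 of the scaled library size). A gene without counts in a library could still have a level of up to 0.134 to 0.170 CPM there, depending on the library. This floor is 3 counts over the unscaled library total, and not over the scaled size used for the levels. Testicular cells were well represented, with all 9 germ cell, 8 Sertoli cell and 7 Leydig cell marker genes listed passing the filter on low counts. Called higher and lower were 0 and 7 germ cell, 4 and 0 Sertoli cell, 1 and 4 Leydig cell and 5 and 0 peritubular or fibroblast markers. Over all genes tested, 15.2% were called higher and 16.3% lower. The Leydig cell marker called higher was lost with DESeq2 and without LPS replicate 2, and 3 peritubular or fibroblast markers were higher with DESeq2 and without NC replicate 2. The summed level of the germ cell list was 13844 to 14391 CPM in the LPS columns and 19731 to 20444 CPM in the NC columns. Most of this sum came from Prm2 (mean 6503 and 10485 CPM), Tnp2, Tnp1 and Prm1. The 2 germ cell markers not called were Sycp3 and Hormad1, with log2 fold changes of -0.11 and -0.06.

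Of the 59 genes, 12 had no count in any library, 14 had 1 to 3 counts in all and 33 had more. The filter on low counts kept 16 genes for the test, which were 14 Clec genes and the Klr genes Klrb1 and Klrg2. It keeps a gene that is near 0 in one group only if the other group is high, so the 16 are not a sample of the family. Among the 16, 7 were called higher in the LPS columns and 3 lower by edgeR's quasi-likelihood test (Benjamini-Hochberg adjusted p under 0.05). Of all 20855 genes tested, 15.2% were called higher and 16.3% lower, a split that moved from 48.3% of calls higher to 62.0% when library size was the only scaling. The median log2 fold change was 0.38 over the 16 genes and 0.00225 over all genes tested. The CPM values of the groups did not overlap in 9 of the 16 genes with the LPS columns higher and in 3 with them lower, against 32.1% and 32.0% of all genes. DESeq2 called 5 of the 16 higher and 2 lower, where it called 6.97% and 8.85% of all genes.

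The genes called higher were Clec4e, Clec4a3, Clec4a1, Clec5a, Clec12a, Clec2d and Clec14a, and those called lower were Klrb1, Clec3b and Clec4g. Clec16a, Clec4g and Clec3b alone took 77.4% of all counts of the 59 genes. In bulk tissue, fewer cells of a type and less RNA per cell cannot be told apart, which holds for every level given here.

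**Figure D1:**
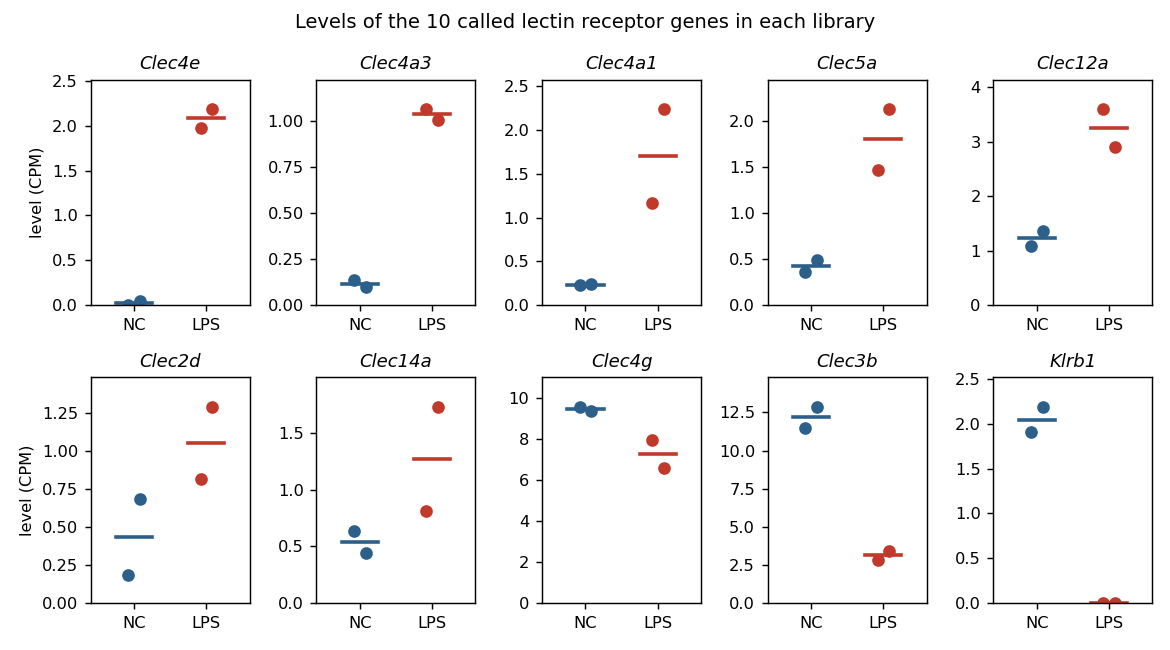
Level in CPM of the 10 called genes in each library, with 1 panel per gene and an axis from 0; points are libraries and bars the mean of 2. The groups do not overlap in any of the panels, Klrb1 lies at 0 in both LPS libraries, and the LPS pairs of Clec4a1, Clec2d and Clec14a are spread more widely, relative to their level, than those of Clec4a3 and Clec3b.

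The activating receptor gene with the largest rise was Clec4e, which encodes Mincle. Mincle is a receptor for mycobacterial glycolipid and for the nuclear protein SAP130 released by dying cells, which the mouse gene symbol Sap130 does not denote. Clec4e (ENSMUSG00000030142.10, mm10 chromosome 6, 123281789 to 123289870, minus strand, protein-coding) had 39 counts in each LPS library, and 0 and 1 in the NC libraries. Both LPS libraries were thus far above both NC libraries, which were at or near the detection floor. The ratio of scaled counts was 88.3, with an exact binomial 95% interval of 15.4 to 3531 that covers counting error only. The fitted log2 fold change was 6.13 ± 0.61 (SE; edgeR, Benjamini-Hochberg adjusted p = 3.83e-10), 5.24 without NC replicate 1 and 8.37 without NC replicate 2.

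Clec4d, the neighbour of Clec4e, encodes MCL, which forms a complex with Mincle. It had 7 and 6 counts in the LPS libraries and none in either NC library. Against a floor of 3 counts over the NC group this is at least 4.90-fold higher. Clec4d was below the filter on low counts and so was not tested in the main fit. With no filter it was called higher in edgeR's test (Benjamini-Hochberg adjusted p = 0.00175).

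The DCIR genes Clec4a1 to Clec4a4 encode receptors of macrophages and dendritic cells, of which some carry an inhibitory ITIM. Clec4a1 (ENSMUSG00000049037.8, chromosome 6, 122921848 to 122934619, plus strand) had 23 and 40 counts in the LPS libraries and 5 in each NC library. Its level was 1.70 ± 0.76 CPM in the LPS columns and 0.235 ± 0.012 CPM in the NC columns (SD, n = 2 per group), a log2 fold change of 2.81 with an SE of 0.44 (edgeR, Benjamini-Hochberg adjusted p = 3.76e-06). Clec4a3 (ENSMUSG00000043832.13, 122952515 to 122969875, plus strand) had 21 and 18 counts against 3 and 2. It stood at 1.04 ± 0.04 CPM in the LPS columns and 0.117 ± 0.027 CPM in the NC columns (SD, n = 2 per group), a log2 fold change of 3.08 ± 0.53 (SE; edgeR, Benjamini-Hochberg adjusted p = 1.81e-05). For both genes the lower LPS library was above the higher NC library.

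The other DCIR genes gave different values. Clec4a2, the most abundant DCIR gene per length in the NC columns, had 69 and 44 counts against 54 and 67, overlapping ranges and a log2 fold change of 0.08 ± 0.22 (SE; edgeR, Benjamini-Hochberg adjusted p = 0.832). Clec4a4 had 2 and 0 counts against 6 and 3, for a scaled ratio of 0.252 (counting interval 0.0264 to 1.22), so no difference was detectable at this depth. Clec4a4 shares 15.7% of its 50-base transcript windows with Clec4a2 (all transcripts of GENCODE M21, transcript strand only), so its few reads are uncertain. By the same search Clec4a1, Clec4a3, Clec4d and Clec4e share none with any other gene.

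The Clec4 cluster, from Clec4a1 to Clec4e, spans 368 kb of chromosome 6 and holds 13 gene rows, 9 of them lectin genes. The 4 lectin genes tested there gave 3 calls higher and 0 lower, beside 15.2% and 16.3% over all genes tested. The called genes had 0 to 5 counts per NC library and passed the filter on low counts through the LPS columns. The counts of calls therefore leave out cluster genes that were low in both groups. None of the other rows had enough counts to be tested. Of the remaining lectin genes in the cluster, Clec4n, which encodes the fungal mannan receptor Dectin-2, had 1 and 0 counts against 3 and 3, and Clec4b1 had 2 and 0 against 2 and 3, while Clec4b2 had none.

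The upstream sequences of 3 of these genes, which lie in 1 cluster and were higher in the same libraries, are shown. They are followed by that of Klrb1, the gene with the opposite pattern. Clec4a3 lies in the same cluster and was higher too, and GAGGAA was also found before its start, but its sequence is not shown. Each line is the 250 bases before the RefSeq start (GRCm38.p6), 5′ to 3′ on the strand of the gene, in lower case, with every match of GAGGAA or of its reverse complement TTCCTC in capitals. GAGGAA is the core of sites bound by PU.1, a transcription factor of myeloid cells. The windows are chr6:122921598-122921847 (plus strand) for Clec4a1, chr6:123261857-123262106 (plus) for Clec4d, chr6:123289872-123290121 (minus) for Clec4e and chr6:128723098-128723347 (minus) for Klrb1.
Clec4a1: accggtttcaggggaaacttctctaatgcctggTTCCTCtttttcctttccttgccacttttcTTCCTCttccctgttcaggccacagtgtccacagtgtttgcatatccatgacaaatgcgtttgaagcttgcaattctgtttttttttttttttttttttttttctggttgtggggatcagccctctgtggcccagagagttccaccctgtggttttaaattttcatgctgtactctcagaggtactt
Clec4d: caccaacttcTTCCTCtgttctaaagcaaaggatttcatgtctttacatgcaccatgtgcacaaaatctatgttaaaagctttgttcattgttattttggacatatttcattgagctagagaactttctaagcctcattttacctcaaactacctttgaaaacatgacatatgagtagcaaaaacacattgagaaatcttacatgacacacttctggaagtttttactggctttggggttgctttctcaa
Clec4e: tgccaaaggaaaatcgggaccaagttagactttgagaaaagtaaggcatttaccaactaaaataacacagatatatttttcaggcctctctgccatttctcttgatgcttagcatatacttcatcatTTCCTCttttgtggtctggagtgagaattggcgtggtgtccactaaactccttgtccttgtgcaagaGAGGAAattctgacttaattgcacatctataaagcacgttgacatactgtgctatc
Klrb1: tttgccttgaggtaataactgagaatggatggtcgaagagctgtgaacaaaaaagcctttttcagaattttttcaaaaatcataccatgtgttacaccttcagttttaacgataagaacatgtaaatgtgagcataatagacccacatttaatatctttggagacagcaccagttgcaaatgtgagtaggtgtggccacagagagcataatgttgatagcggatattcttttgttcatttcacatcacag
The window of Clec4a1 holds 2 matches, that of Clec4d 1, that of Clec4e 2 and that of Klrb1 0. The bases after the RefSeq start were found in a GENCODE transcript of the gene for the 3 Clec4 genes but not for Klrb1. Whether the Klrb1 window lies before a start used in testis is therefore uncertain, and its 0 matches cannot be set against the others. RefSeq start windows were found for 48 of the 59 genes, some with more than 1 start, giving 56 windows, of which 32 (57.1%) hold GAGGAA on either strand. The share over all 32851 windows of the table is 23.3%. The windows of the lectin genes had a median GC content of 40.6% against 52.4% over all windows, and its part in the difference in shares was not tested. The Clec4e window also holds TTGCNNAA, a form of the C/EBP motif, starting 66 bases before the start. TTGCNNAA was found in 15 of the 56 lectin gene windows and in 9.56% of all windows. TATAAA starts 29 bases before the start of Clec4e, and was found in 17 of the 56 windows and in 12.4% of all windows. The NF-kB consensus was in 0 of the 8 windows of genes called higher and in 7.25% of all windows. All motifs were sought on both strands, and a match is a description of the letters and not of a bound site.

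Other myeloid receptors outside the Clec4 cluster rose as well. Clec5a encodes MDL-1, an activating receptor of monocytes and neutrophils that signals through DAP12. Clec5a (ENSMUSG00000029915.14, chromosome 6, 40574894 to 40585821, minus strand) had 29 and 38 counts in the LPS libraries, against 8 and 10 in the NC libraries. Its level was 1.80 ± 0.46 CPM in the LPS columns and 0.425 ± 0.088 CPM in the NC columns (SD, n = 2 per group), 4.23 times the NC level, with a log2 fold change of 2.06 ± 0.36 (SE; edgeR, Benjamini-Hochberg adjusted p = 2.65e-05). Clec12a encodes an inhibitory receptor of myeloid cells that binds uric acid crystals. Clec12a (ENSMUSG00000053063.11, chromosome 6, 129342691 to 129365303, plus strand) had 71 and 52 counts against 24 and 28. Its mean was 3.26 ± 0.49 CPM in the LPS columns and 1.23 ± 0.19 CPM in the NC columns (SD, n = 2 per group), a log2 fold change of 1.41 ± 0.24 (SE; edgeR, Benjamini-Hochberg adjusted p = 2.07e-05). The adjacent inhibitory receptor gene Clec12b had 62 and 65 counts against 53 and 56, groups that do not overlap in CPM, and was not called, at 0.40 ± 0.20 (log2 fold change, SE; edgeR, Benjamini-Hochberg adjusted p = 0.139).

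Several well-known receptors of myeloid and dendritic cells were too low for the test. Clec7a, which encodes the beta-glucan receptor Dectin-1, had 1 and 2 counts in the LPS libraries and 7 in each NC library, for a scaled ratio of 0.243 (counting interval 0.0447 to 0.869). Clec10a, which encodes a galactose-binding receptor of macrophages and dendritic cells, had 3 and 1 counts against 12 and 7, which is 0.104 ± 0.068 CPM against 0.443 ± 0.144 CPM (SD, n = 2 per group). Both LPS libraries were below both NC libraries for these 2 genes. With no filter on low counts Clec10a was called lower (edgeR, Benjamini-Hochberg adjusted p = 0.0378), while Clec7a was not (adjusted p = 0.116 by the same test). Clec10a shares 9.02% of its transcript windows with other genes, mainly Mgl2. Clec9a, the dead-cell receptor of cross-presenting dendritic cells, had 1 and 0 counts against 1 and 0, and Clec4f, a marker of Kupffer cells of the liver, had none.

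**Figure D2:**
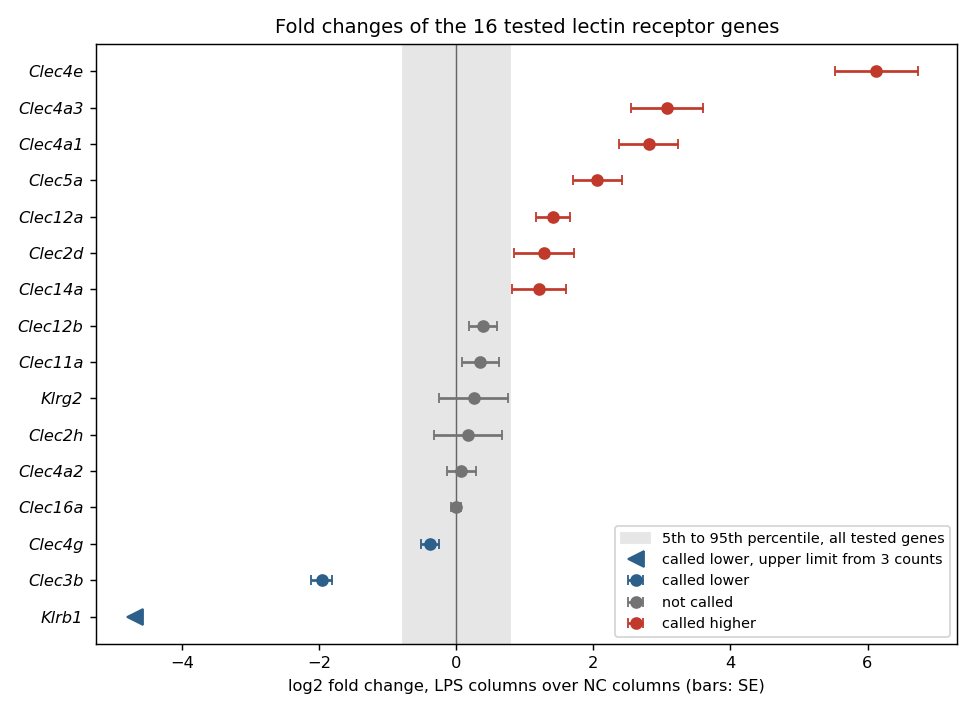
Log2 fold change of the 16 tested genes, LPS columns over NC columns, with the SE as a bar, over a grey band from the 5th to the 95th percentile of all tested genes (-0.77 to 0.79). The 7 genes called higher lie right of the band, Clec3b and Klrb1 left of it and Clec4g inside it; Klrb1 is drawn at its limit of -4.68 from 3 counts over the LPS group.

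Clec3b encodes tetranectin, a secreted protein that binds plasminogen. Clec3b (ENSMUSG00000025784.5, chromosome 9, 123150946 to 123157432, plus strand) had 56 and 61 counts in the LPS libraries, against 253 and 264 in the NC libraries. Its level was 3.13 ± 0.41 CPM in the LPS columns and 12.2 ± 0.97 CPM in the NC columns (SD, n = 2 per group), 3.89 times higher in the NC columns, a log2 fold change of -1.96 ± 0.15 (SE; edgeR, Benjamini-Hochberg adjusted p = 3.01e-13). Clec4g encodes LSECtin, known from the sinusoidal endothelium of liver and lymph node. Clec4g (ENSMUSG00000074491.9, chromosome 8, 3707064 to 3720651, minus strand) had 157 and 118 counts against 211 and 193, and 7.29 ± 0.96 CPM against 9.5 ± 0.13 CPM (SD, n = 2 per group). The groups did not overlap, but the fall was small, with a log2 fold change of -0.38 ± 0.13 (SE; edgeR, Benjamini-Hochberg adjusted p = 0.0234). DESeq2 did not call Clec4g (Benjamini-Hochberg adjusted p = 0.225), nor did edgeR with library size as the only scaling (adjusted p = 0.0674), without LPS replicate 2 (0.248), without NC replicate 1 (0.0959) and without NC replicate 2 (0.0552), over a range of 0.00925 to 0.248.

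Clec14a encodes a receptor of endothelial cells that binds the matrix protein Mmrn2. Clec14a (ENSMUSG00000045930.3, chromosome 12, 58264720 to 58269258, minus strand) had 16 and 31 counts in the LPS libraries, against 14 and 9 in the NC libraries. Its level was 1.27 ± 0.65 CPM in the LPS columns and 0.537 ± 0.140 CPM in the NC columns (SD, n = 2 per group), a log2 fold change of 1.20 ± 0.39 (SE; edgeR, Benjamini-Hochberg adjusted p = 0.0171). The LPS libraries differed from each other by more than the group means did. Without LPS replicate 2 the log2 fold change was 0.58 and the call was lost (edgeR, Benjamini-Hochberg adjusted p = 0.492), as it was without NC replicate 2 (adjusted p = 0.131) and with DESeq2 (adjusted p = 0.205), over a range of 0.00113 to 0.492. Of 8 tested endothelial marker genes 3 were called higher and 1 lower, beside 15.2% and 16.3% over all genes tested. DESeq2 called 1 higher and 0 lower, beside 6.97% and 8.85% of all genes. The count higher also fell without LPS replicate 2, and the count lower without NC replicate 1. The summed level of the list was 29.8 to 34.7 CPM in the LPS columns against 26.7 to 33.6 CPM. The part of these cells in the Clec14a value was not tested.

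The remaining Clec genes outside the immune clusters differed less or were near the floor. Clec16a, which encodes an endosomal protein of mitophagy and not a typical lectin receptor, had 947 and 953 counts against 1114 and 1041, or 50.7 ± 3.8 CPM against 50.7 ± 0.08 CPM (SD, n = 2 per group). Its log2 fold change was -0.00084 ± 0.0685 (SE; edgeR, Benjamini-Hochberg adjusted p = 0.994). Clec11a, which encodes the secreted bone growth factor osteolectin, had 38 and 31 counts against 31 and 30 and was not called, at 0.35 ± 0.26. Clec18a had 8 and 6 counts against 5 and 3, Clec3a, a cartilage lectin gene, 3 and 1 against 2 and 6, Clec2l 3 and 2 against 0 and 2, and Clec1a 3 and 0 against 0 and 1. Clec1b, the podoplanin receptor of platelets, had counts only in NC replicate 2, where there were 2.

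The largest fall of any of the genes was that of Klrb1, which encodes NKR-P1G, an inhibitory receptor for Clec2 proteins. Klrb1 (ENSMUSG00000079299.3, chromosome 6, 128705836 to 128723059, minus strand, protein-coding) had no count in either LPS library, against 42 and 45 in the NC libraries. All of its 87 counts thus lay in the NC columns, where its level was 2.05 ± 0.20 CPM (SD, n = 2). Against a floor of 3 counts over the LPS group it was at least 25.6-fold lower there (edgeR, Benjamini-Hochberg adjusted p = 3.6e-10, and 1.33e-23 to 1.19e-05 over the alternatives). None of its 50-base transcript windows occurs in the annotated transcripts of another gene, and no other row of the table overlaps it. Only the transcript strand was searched, so reads from the opposite strand or from unannotated sequence were not checked.

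The nearest relatives of Klrb1 had few counts in either group. Klrb1a had 7 and 3 counts against 6 and 11, Klrb1b 3 and 0 against 3 and 3, Klrb1f 1 and 1 against 0 and 0, and Klrb1c, which encodes the NK1.1 antigen, 5 and 0 against 1 and 0. None of these 4 passed the filter on low counts, and with no filter none was called (edgeR, Benjamini-Hochberg adjusted p from 0.43 to 0.716). Klrb1b and Klrb1c share 27.2% and 17.0% of their windows with other genes, mainly with the gene model Gm44511. Without Klrb1, the 26 Klr genes would have been represented in the test by Klrg2 alone. Klrg2 had 10 and 9 counts against 14 and 4 and was not called, at 0.25 ± 0.50 (log2 fold change, SE; edgeR, Benjamini-Hochberg adjusted p = 0.747).

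The Clec2 genes, which encode ligands of the Klrb1 receptors, lie among them. Clec2d encodes Clr-b, the ligand by which healthy cells engage the inhibitory receptor Klrb1b. Clec2d (ENSMUSG00000030157.5, chromosome 6, 129180615 to 129186534, plus strand) had 16 and 23 counts in the LPS libraries, against 4 and 14 in the NC libraries. Its mean was 1.05 ± 0.34 CPM in the LPS columns and 0.432 ± 0.354 CPM in the NC columns (SD, n = 2 per group), a log2 fold change of 1.28 ± 0.44 (SE; edgeR, Benjamini-Hochberg adjusted p = 0.0240). The groups were separate in CPM, but the higher NC library was close to the lower LPS library. Without NC replicate 1 the log2 fold change was 0.61 and the call was lost (edgeR, Benjamini-Hochberg adjusted p = 0.432), as without LPS replicate 2 (adjusted p = 0.263) and with DESeq2 (adjusted p = 0.259), over a range of 0.00363 to 0.432, while it was 2.48 without NC replicate 2. Clec2h had 10 and 7 counts against 6 and 11 and was not called, at 0.17 ± 0.50. Clec2i had 0 and 2 counts against 2 and 3, Clec2e 1 and 0 against 0 and 2, the annotated pseudogene Clec2j 0 and 0 against 1 and 0, and Clec2g and Clec2f had none.

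The classical NK receptor genes were at or near 0. Klrk1, which encodes the stress receptor NKG2D, had 4 and 7 counts against 0 and 3, for a scaled ratio of 4.15 (counting interval 1.10 to 23.2). It did not pass the filter, and with no filter it was not called (edgeR, Benjamini-Hochberg adjusted p = 0.152). Klrd1, which encodes CD94, had 0 and 0 counts against 1 and 0, and its partner gene Klrc1, which encodes NKG2A, 2 and 0 against 0 and 1, while Klrc2 and Klrc3 had none. Klre1 had 1 and 1 counts against 0 and 1, Klrg1, a cadherin receptor gene, 0 and 1 against 0 and 1, Klri2 0 and 1 against 0 and 0, and Klri1 none.

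The Klra genes encode the Ly49 receptors for MHC class I molecules. The 11 Klra genes had 5 and 7 counts in all in the LPS libraries, against 6 and 2 in the NC libraries. Klra2 had 2 and 4 counts against 0 and 0, at least 2.26-fold higher against the floor, and Klra5 0 and 0 against 4 and 1, at least 1.47-fold lower. Klra3 had counts only in LPS replicate 2, where there were 3, Klra1 had 2 and 0 against 1 and 0, Klra9 1 and 0 against 0 and 0, and Klra17 0 and 0 against 1 and 1. Klra4, Klra6, Klra7, Klra8 and Klra10 had none. With no filter none of them was called, the smallest edgeR, Benjamini-Hochberg adjusted p being 0.106, for Klra2.

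Most NK cell markers that are not lectin genes were also low. Of 12 such genes, 2 could be tested, the chemokine gene Ccl5 (higher) and the integrin gene Itga2 (lower), both of which other cells express. The summed level of the list was 4.48 to 4.97 CPM in the LPS columns and 5.0 to 5.12 CPM in the NC columns. Ncr1, the defining NK cell receptor gene, was at 0 in all 4 libraries, Prf1 had 1 and 0 counts against 0 and 0, and the cytotoxic granule genes did not move together, with Nkg7 at 0 and 0 against 4 and 7, Gzmb at 5 and 5 against 1 and 2 and Gzma at 6 and 1 against 1 and 2. Cd244 had 6 and 2 against 2 and 1, and the other untested markers Tbx21, Il2rb, Xcl1 and Eomes had 0 to 6 counts per library. T cell markers were lower in 2 of 6 tested genes, Cd8b1 and Cd2, and higher in 0, beside 16.3% and 15.2% over all genes. Their summed level was 8.12 to 8.96 CPM against 10.8 to 11.5 CPM. Both T cell calls were lost when 1 library was left out, with edgeR, Benjamini-Hochberg adjusted p = 0.0681 for Cd8b1 without LPS replicate 1 and 0.39 for Cd2 without NC replicate 1. The part of NK and T cells in the fall of Klrb1 was not tested.

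**Figure D3:**
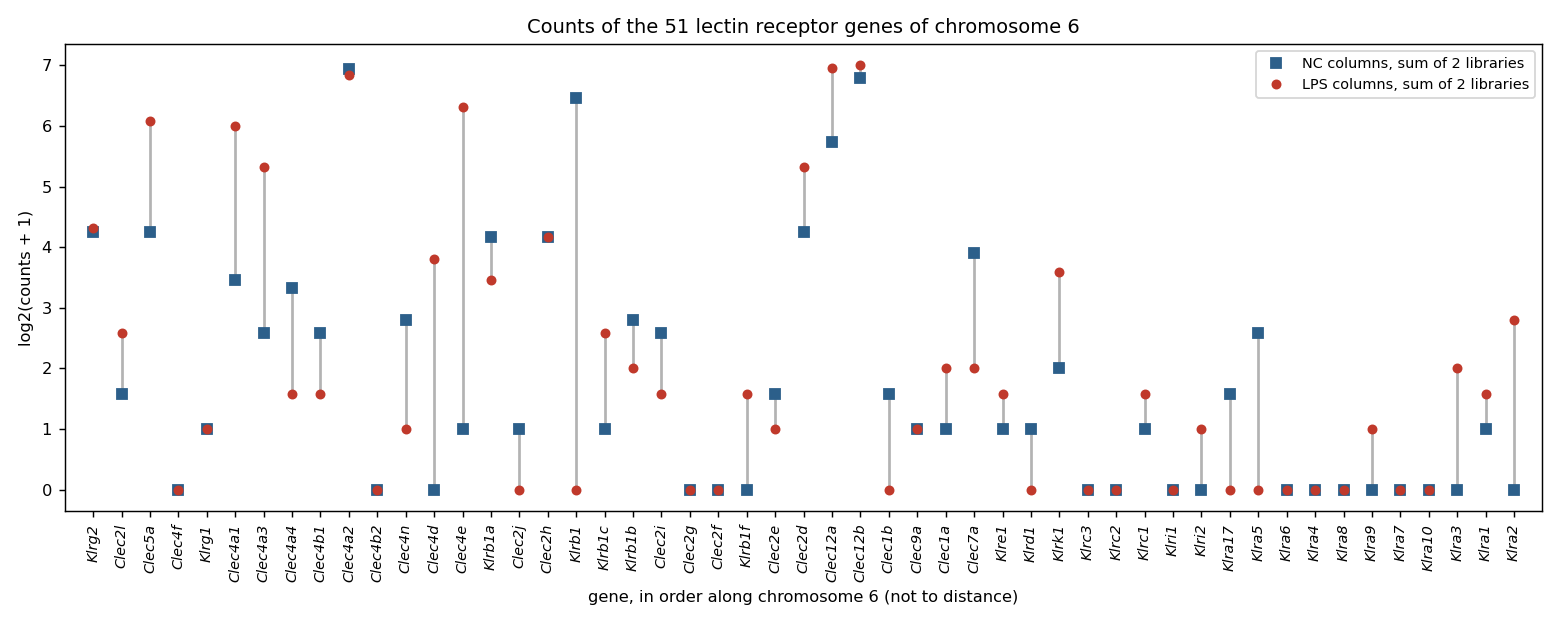
Counts of the 51 lectin genes of chromosome 6 in their order along the chromosome (even spacing, not distance), as log2(counts + 1) of the 2 libraries of each group summed. The LPS points lie above the NC points at Clec4a1, Clec4a3, Clec4d and Clec4e and below them at Klrb1; gaps at genes of few counts, such as Klra2 (6 against 0) and Klra5 (0 against 5), are wider on this scale than that of Clec4a1 and rest on those counts.

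The NK gene complex, taken from Klrb1a to Klra2, spans 2638 kb of chromosome 6 and holds 119 gene rows, of which 37 are lectin genes by the symbol rule. Of 5 tested lectin genes there, 2 were higher (Clec2d and Clec12a), 1 lower (Klrb1) and 2 not called. Over all genes tested, 15.2% were called higher and 16.3% lower. Among the other rows 7 were tested, of which 0 were called higher and 1 lower, the pseudogene Gm8778. Gabarapl1, an autophagy gene in the same interval, had 1548 and 1472 counts against 1782 and 1794 and was not called. None of the other tested genes in the interval was at 0 in a library, but the filter on low counts removes most such genes. Klrb1 itself passed it through the NC columns. Untested rows of the interval were also at 0 in a whole group. Gm15987 had 9 and 9 counts against 0 and 0, Klra2 2 and 4 against 0 and 0, and Klra5 0 and 0 against 4 and 1.

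Compared per length, the most abundant of the 59 genes in the LPS columns was Clec16a, at 6.06 CPM per kb of exon in both groups. Clec3b followed at 3.15 CPM per kb in the LPS columns and was the most abundant in the NC columns, at 12.3. Clec4g was at 2.96 and 3.86 CPM per kb in the LPS and NC columns, and Clec12b at 2.10 and 1.59. Klrb1, at 1.46 CPM per kb, stood above every other Klr gene in the NC columns. Clec4a1 at 1.09 CPM per kb matched Clec4a2 at 1.02 in the LPS columns, while in the NC columns Clec4a1 was at 0.151 and Clec4a2 at 0.977. Clec4e, the gene with the largest rise, remained low, at 0.419 CPM per kb in the LPS columns.

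The genes through which these receptors signal were examined with a list of 25 adaptors, kinases and phosphatases, of which 22 were tested. Of these, 8 were called higher, 3 lower and 11 not called (15.2% and 16.3% of all genes tested were called higher and lower), with a median log2 fold change of 0.30. Fcer1g, the adaptor chain used by Mincle and MCL, had 58 and 38 counts in the LPS libraries and 10 in each NC library, a log2 fold change of 2.42 ± 0.32 (SE; edgeR, Benjamini-Hochberg adjusted p = 2.18e-07). Syk, the kinase that binds it, had 84 and 88 counts against 43 and 25 and rose by 1.52 ± 0.22 on the log2 scale (SE). Pik3ap1, which links receptors to PI3-kinase, rose by 1.68 ± 0.12 and the Src family kinase gene Lyn by 1.20 ± 0.24. Ptpn6, which encodes the inhibitory phosphatase SHP-1, had 164 and 153 counts against 78 and 73 and rose by 1.25 ± 0.15.

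Not every step of the pathway moved. Tyrobp, which encodes the DAP12 adaptor of Clec5a, had 19 and 12 counts against 8 and 10 and was not called, at 0.95 ± 0.43 (log2 fold change, SE; edgeR, Benjamini-Hochberg adjusted p = 0.0864). Card9 had 8 and 16 counts against 20 and 19, a log2 fold change of -0.52 ± 0.39 that was not called (adjusted p = 0.343 in the same test). Its partner genes Bcl10 and Malt1 were at 0.41 ± 0.17 and 0.27 ± 0.12 (log2 fold change, SE) and were not called either. The 3 genes called lower were Pik3cd (log2 fold change -0.40 ± 0.07), Prkcd (-0.32 ± 0.06), a kinase that activates Card9, and Inpp5d (-0.53 ± 0.12), which encodes the inhibitory lipid phosphatase SHIP-1. Their mean levels in the LPS and NC columns were 42.8 and 56.4 CPM for Pik3cd, 83.9 and 105 CPM for Prkcd and 8.94 and 12.9 CPM for Inpp5d. Which cells of the testis these reads came from was not tested. Hcst, the adaptor gene of NKG2D, had 1 and 0 counts against 0 and 1.

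Ligands and partners of the receptors formed the second list, of 20 genes, 16 of them with a row and 11 tested. Of these, 7 were called higher, 1 lower and 3 not called, beside the same 15.2% and 16.3% over all genes. H2-T23, which encodes Qa-1, the ligand of CD94 with NKG2A, had 165 and 166 counts against 27 and 19 and rose by 3.02 ± 0.20 on the log2 scale (SE). The Ly49 ligand gene H2-D1 rose by 2.74 ± 0.07 and H2-K1 by 0.75 ± 0.06, and both belong to a family with near-identical copies, so their counts are uncertain. Pdpn, which encodes podoplanin, the ligand of Clec1b, had 124 and 118 counts against 13 and 17 and rose by 3.18 ± 0.23, Cdh2 rose by 0.82 ± 0.06 and Ulbp1, an NKG2D ligand gene, by 1.62 ± 0.45. Mmrn2, the partner gene of Clec14a, rose by 1.58 ± 0.32. The member called lower was Sap130 (log2 fold change -0.27 ± 0.06). This gene shares its abbreviation with the Mincle ligand but is another gene, so its value does not describe that ligand. It was kept in the counts of the list. The receptor genes for several of the ligand genes that rose (Klrc1, Klrd1 and Clec1b) were themselves at 0 to 2 counts per library.

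The third list held 43 genes with a C-type lectin domain but another symbol, of which 21 were tested. Of these, 6 were called higher, 7 lower and 8 not called, beside 15.2% and 16.3% over all genes, with a median log2 fold change of 0.35. Cd209f, a DC-SIGN family gene, had 39 and 30 counts in the LPS libraries against 10 and 12 and rose by 1.81 ± 0.34 on the log2 scale (SE). Its relative Cd209g rose by 1.78 ± 0.48, Cd93, a receptor gene of endothelial and myeloid cells, by 1.17 ± 0.30 and Cd302 by 0.63 ± 0.14. Mrc1, which encodes the macrophage mannose receptor, had 244 and 227 counts against 421 and 429 and a log2 fold change of -0.67 ± 0.10. Cd72 was at -0.25 ± 0.05, Frem1, a gene of the extracellular matrix, at -1.19 ± 0.28 and Thbd, the thrombomodulin gene, at -1.0 ± 0.29. Mrc1 is also counted among the macrophage markers. With DESeq2 the counts of this list were 2 higher and 2 lower, near its 6.97% and 8.85% over all genes, and leaving out 1 library gave 3 to 6 higher and 4 to 5 lower.

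**Figure D4:**
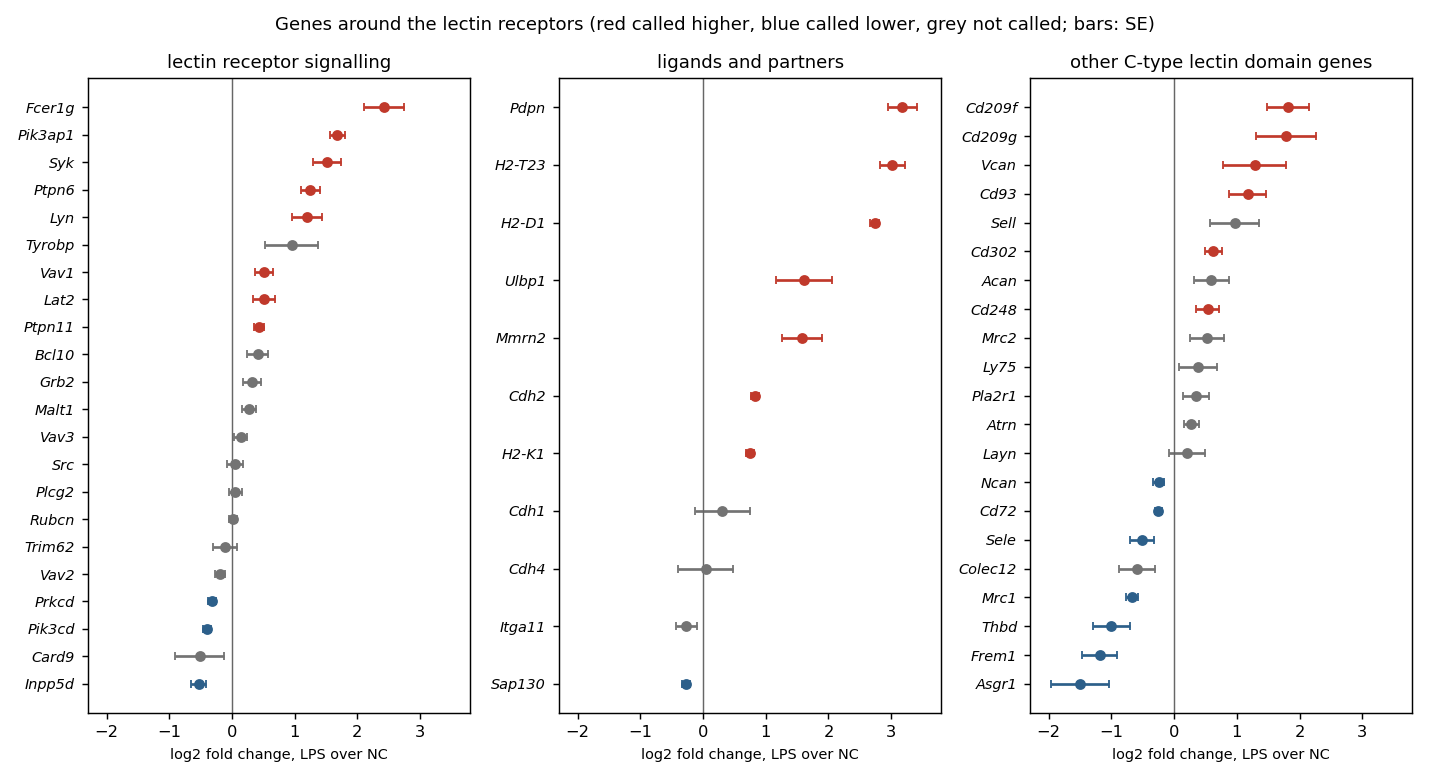
Log2 fold change with SE of the tested genes of the 3 lists, LPS columns over NC columns, 22 signalling genes, 11 ligands and partners and 21 other C-type lectin domain genes. Red marks genes called higher, blue lower and grey not called; Fcer1g, Pdpn, H2-T23 and H2-D1 lie above 2, while the third list has calls on both sides of 0.

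Marker genes of cells that can carry these receptors gave calls in both directions, where 15.2% of all genes tested were called higher and 16.3% lower. Of 13 tested macrophage markers, 9 were called higher, 3 lower (Mrc1, Csf1r and Cd163) and 1 was not called, and their summed level was 108 to 119 CPM in the LPS columns and 69.4 to 76.0 CPM in the NC columns. Adgre1, which encodes F4/80, had 175 counts in each LPS library against 55 and 46, and Itgam, which encodes CD11b, 197 and 211 against 42 and 30. Of 4 tested neutrophil markers 3 were higher (S100a9, Lcn2 and Mpo) and 0 lower. S100a9 had 35 and 32 counts against 0 and 0 and so passed the filter through the LPS columns. The defining gene Ly6g was at 0 and 0 counts against 4 and 6. Most of the summed level of this list, 194 to 234 CPM in the LPS columns, was that of Lcn2, at 190 and 229 CPM. Of 6 tested dendritic cell markers 1 was higher and 3 lower (0 lower with DESeq2 and 1 without NC replicate 2), with a summed level of 33.7 to 34.9 CPM against 36.3 to 36.9 CPM, and Cd209a was at 0 in all libraries. Among B cell markers 0 were higher and 1 (Ighm) lower of 2 tested, among platelet markers 0 and 1 (Pf4, lost with DESeq2 and without NC replicate 1) of 3, and no mast cell marker could be tested. The part of these cells in the rises of Clec4e, Clec4a1, Clec4a3, Clec5a and Clec12a was not tested.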

How the data were processed

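The deposited table holds raw read counts per gene for the 4 libraries, with the leading columns that featureCounts writes, per the file headers. Tools named without roles in the submitters' processing notes are STAR 2.5.3a, DESeq, Trimmomatic 0.36, edgeR 3.12.1 and featureCounts with Subread 1.5.1, and the build is mm10. The counting's strand setting and the annotation release are not stated in these sources, so reads of overlapping or near-identical genes are uncertain.

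The deposited counts were filtered with filterByExpr, scaled by TMM and compared with edgeR 4.0.16 (quasi-likelihood test, 2 residual and 34.0 prior degrees of freedom, Benjamini-Hochberg over 20855 genes, called under 0.05). The SE is implied by the F statistic, and CPM uses the TMM-scaled sizes. Floors are 3 counts, over the group for folds, and intervals are exact binomial at 95%; both cover counting error only. The fit was tested on simulated counts. Replicates differed by more than sampling noise (chi-square of 2.31 and 2.20 per degree of freedom) and were kept apart.

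Alternatives were DESeq2 1.42.0, limma-voom (limma 3.58.1), DESeq2 size factors, library size only, 2 other filters, a replicate block and leaving out each library. Promoter windows are from RefSeq, gene types and transcripts from GENCODE M21. The genes and lists were chosen with earlier results of these data known. Named are all 59 genes and, per list, up to 4 called genes in each direction by adjusted p, with known adaptors and ligands of called genes; other list genes named were chosen after their values were seen. Of the 20 listed ligands and partners, 4 had no row under their symbol. One signalling gene was taken out of its list and is not reported here.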

Additional observations from a re-analysis of the deposited data

How the results depend on the processing

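Of the 10 calls among the lectin genes, those of Clec4e, Clec4a1, Clec4a3, Clec5a, Clec12a, Klrb1 and Clec3b held in all 11 alternatives, and those of Clec14a, Clec2d and Clec4g were each lost in some of them, as given above. The counts of lectin genes called stayed within 5 to 8 higher and 2 to 4 lower, the highest with no filter on low counts, where Clec4d and Clec10a were added, and leaving out 1 library gave 5 to 7 higher and 2 to 3 lower. Over all genes DESeq2 called 1454 higher and 1845 lower, and library size as the only scaling 4207 and 2579, with a shift of the median log2 fold change of 0.06. Leaving out 1 library gave 1 to 2 lower among ligands and partners, with 2 without LPS replicate 2. Among the other C-type lectin domain genes it gave 3 to 6 higher (3 without LPS replicate 2 and without NC replicate 1) and 4 to 5 lower (4 without LPS replicate 1, NC replicate 1 or NC replicate 2). DESeq2 gave 2 and 2 there, and the cause was not tested. With the replicate number as a block, 7 of 16 lectin genes tested were higher and 3 lower, the same 10 genes. Over all genes the block gave 3376 higher and 3594 lower of 20855. The libraries share only a number, since same-numbered deviations had a correlation of 0.0155, so the block was not used. With an arm of 1 library, that library is assumed to vary like the others. At this depth 43 of the 59 genes were too low to be tested.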

Other observations

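Rows of the table that overlap 1 of the lectin genes, or that the symbol rule dropped as pseudogenes, numbered 19, and 7 of them had more than 3 counts in all. They are given as values, because without the strand setting of the counting their reads cannot be assigned with certainty. Gm15987, annotated as antisense and overlapping Clec2g, had 9 and 9 counts in the LPS libraries and none in the NC libraries, which is at least 6.79-fold higher against 3 counts over the NC group, while Clec2g itself had none. Gm8778, a processed pseudogene that also overlaps Clec2g, had 12 and 14 counts against 30 and 27 and was called lower, with a log2 fold change of -0.95 ± 0.34 (SE; edgeR, Benjamini-Hochberg adjusted p = 0.0306). The dropped pseudogene Klrb1-ps1 had 5 and 2 counts against 1 and 0, the reverse order of Klrb1. Mir7649 had 1 and 3 counts against 0 and 0, Gm15558 in Clec16a 1 and 6 against 1 and 2, Gm16553 in Clec4g 2 and 1 against 3 and 3, and Gm44511 beside Klrb1b and Klrb1c 2 and 0 against 1 and 3.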
